A study of Mus musculus with 2 samples.

Results

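Glycolysis was followed through 10 genes in splenic regulatory T cells (Tregs): Slc2a1, which encodes a glucose transporter, and Hk1, Hk2, Gpi1, Aldoa, Gapdh, Pgk1, Eno1, Pkm and Ldha, which encode enzymes that act after glucose has entered the cell. They were chosen by symbol as members of the pathway, and are 10 of the 32285 features in each library. Aldoa stands under 2 gene identifiers, so the 10 symbols cover 11 features. The second Aldoa identifier had 1 UMI in each library over all T-lineage barcodes, so the Aldoa values are in effect those of the first.

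YFP+ cells without the dead cell stain 7AAD had been sorted from spleens of 7-day-old C57BL/6J mice and their RNA was tagged cell by cell in droplets and sequenced, as 1 WT library and 1 KO library (Zfp335fl/flFoxp3-Cre). Zfp335 encodes a zinc finger protein. Per the study's methods, mice of both groups carried a Foxp3 allele that also encodes a fusion of YFP and the Cre recombinase, so that YFP marks cells in which Foxp3, the transcription factor of Tregs, has been expressed, and in KO mice Cre deletes the floxed Zfp335 in those cells. The number of mice behind each library is not given in the sources used here, and since neither genotype was replicated, no test between them is given.

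Glycolysis splits glucose into pyruvate in the cytosol. The transporter brings glucose in, hexokinases (Hk1, Hk2) trap it by phosphorylation, Gpi1 and Aldoa carry the sugar phosphate to the split into 3-carbon units, Gapdh and Pgk1 run the oxidation and the first ATP-forming step, and Eno1 and Pkm lead to pyruvate, which Ldha turns into lactate while restoring NAD+. Activated and dividing T cells are known for high glycolytic gene expression, driven among others by the factors Myc and Hif1a, and Tregs are known to rely less on glycolysis than conventional effector T cells do.

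The WT library held 64567991 UMIs (unique molecular identifiers, 1 per captured transcript) in 14524 barcodes and the KO library 65480052 UMIs in 18134 barcodes. At least 300 genes, at most 5% mitochondrial UMIs and removal of doublet-scored barcodes left 7840 WT and 12790 KO barcodes, with medians of 5060 and 2725 UMIs. Of 70 barcode sequences that both libraries share, 27 were kept in both. Barcodes of the T lineage numbered 7303 in WT and 11924 in KO, and Foxp3 stood at 40.6 CPM (UMIs of the gene per 1000000 UMIs of the group) in WT and 44.7 CPM in KO over them. Zfp335, the deleted gene, had 384 UMIs (8.15 CPM) in WT and 40 UMIs (0.824 CPM) in KO, a KO to WT ratio of 0.101. The T-lineage barcodes also held transcripts of red blood cells and neutrophils: the 12 erythroid markers summed to 461 CPM in WT and 3117 CPM in KO with all 12 higher in KO, and the 9 neutrophil markers to 316 and 797 CPM with all 9 higher in KO. Their part in the results below was not tested.

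T cell states were named from clusters that were found without the 10 genes. Resting Treg-like barcodes numbered 2695 in WT and 4935 in KO, activated ones 621 and 1198, effector ones 1674 and 61, and cycling ones 558 and 695. A further cluster, cluster 7, held effector and mitotic markers at once and had 593 WT and 323 KO barcodes. The 14 effector markers summed to 2491 CPM in WT and 280 CPM in KO over all T-lineage barcodes, all 14 lower in KO, so the effector comparison rests on 61 KO barcodes. The 10 genes were summed as UMIs over the barcodes of a library and state and scaled to CPM. Intervals, in parentheses, are exact 95% intervals that cover counting error only.

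The 250 bases upstream of 4 starts are shown as examples. Ldha and Pgk1 followed the other members closely across clusters, whereas Aldoa and Hk2 did so less and Hk1, not shown, did so least. The letters ACGTG, searched on both strands, are a form of the core that hypoxia-inducible factors are known to bind. CACGTG, which contains them on both strands, is the E-box of Myc. Capitals mark each ACGTG or its reverse complement CACGT. The sequences are from RefSeq (GRCm38.p6) and are written 5′ to 3′ on the gene's strand. Ldha at chr7:46845554-46845803 (plus strand), Pgk1 at chrX:106186850-106187099 (plus strand), Aldoa at chr7:126799255-126799504 (minus strand) and Hk2 at chr6:82774455-82774704 (minus strand) overlap no annotated exon of GENCODE M21.
Ldha: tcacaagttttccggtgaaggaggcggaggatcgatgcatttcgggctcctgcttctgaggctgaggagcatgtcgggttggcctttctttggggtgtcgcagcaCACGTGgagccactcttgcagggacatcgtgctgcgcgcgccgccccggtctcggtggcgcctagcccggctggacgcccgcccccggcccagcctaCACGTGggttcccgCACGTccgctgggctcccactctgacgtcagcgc
Pgk1: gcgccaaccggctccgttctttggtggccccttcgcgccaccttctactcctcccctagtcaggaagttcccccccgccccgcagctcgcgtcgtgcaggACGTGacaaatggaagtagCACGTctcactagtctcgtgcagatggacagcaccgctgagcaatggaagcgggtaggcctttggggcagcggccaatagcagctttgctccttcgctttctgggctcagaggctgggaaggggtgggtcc
Aldoa: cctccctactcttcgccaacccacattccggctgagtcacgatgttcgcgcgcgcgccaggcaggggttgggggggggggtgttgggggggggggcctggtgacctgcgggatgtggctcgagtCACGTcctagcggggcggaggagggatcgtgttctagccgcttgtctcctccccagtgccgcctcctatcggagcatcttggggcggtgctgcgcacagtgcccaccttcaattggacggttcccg
Hk2: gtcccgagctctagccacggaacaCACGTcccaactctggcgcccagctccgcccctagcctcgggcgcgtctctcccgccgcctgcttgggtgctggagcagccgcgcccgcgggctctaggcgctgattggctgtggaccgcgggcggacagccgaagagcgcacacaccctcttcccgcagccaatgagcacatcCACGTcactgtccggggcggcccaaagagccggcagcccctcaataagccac

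The Ldha window held 5 matches of ACGTG, of which 4 lie in 2 copies of CACGTG, and the Pgk1 and Hk2 windows held 2 each and the Aldoa window 1. Of 17 windows listed for the 10 genes, 7 held ACGTG, from 6 of the genes (Slc2a1, Hk2, Aldoa, Pgk1, Pkm and Ldha). The windows shown are all among these 7, which include overlapping Aldoa windows that share the same match. GCGTG, which was also searched, was in 7 of the 17 windows, from 5 of the genes, and in 28.2% of all windows. Of all 32851 windows of the same length, 16.6% held ACGTG, 6.02% held CACGTG and 0.134% held ACGTG 5 times or more. A match is a description of the letters and does not show a binding site.

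The genes lie on 6 chromosomes of GRCm38 (GENCODE M21), all annotated as protein coding. Slc2a1 (chr4:119108711-119137983) and Eno1 (chr4:150236721-150248879) share chromosome 4, Hk2 (chr6:82725025-82774454) and Gapdh (chr6:125161715-125166467) chromosome 6, and Gpi1 (chr7:34201330-34230336), Ldha (chr7:46841475-46855627) and Aldoa (chr7:126795234-126800751) chromosome 7. Pkm lies at chr9:59656368-59679375, Hk1 at chr10:62268855-62379908 and Pgk1 at chrX:106187100-106203699. Gapdh, Eno1, Ldha and other glycolytic genes have processed copies elsewhere in the genome, and how such reads were divided was not tested, so their levels are uncertain to that extent.

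Over all T-lineage barcodes the 10 genes took 237157 of the WT UMIs, or 5036 CPM (5016 to 5057), and 208766 of the KO UMIs, or 4303 CPM (4284 to 4321), a KO to WT ratio of 0.854 (0.849 to 0.859). Gapdh, the enzyme of the oxidation step, alone gave 98991 of the WT UMIs. Each UMI stands for 1 captured molecule whatever its length, so levels of the genes were set side by side as CPM, with differences in capture unknown. In WT the order ran from Gapdh (2102 CPM) through Ldha (881), Pkm (623), Eno1 (408), Aldoa (377), Pgk1 (289) and Gpi1 (269) to Hk1 (57.9), with Hk2 (15.0) and Slc2a1 (14.2) lowest and with overlapping intervals. The enzymes of the later steps were thus counted far more often than the transporter and the hexokinases.

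In KO the first 4 places were unchanged, Gapdh at 1783 CPM, Ldha at 805, Pkm at 582 and Eno1 at 354, but Aldoa, at 209 CPM, stood below Gpi1 (267) and Pgk1 (227). Aldoa encodes the aldolase that splits fructose bisphosphate. Its KO to WT ratio of 0.553 (0.540 to 0.567) was the lowest of the 10. It was the only member past 1.5-fold lower in KO, where 9.19% of the 10159 genes with at least 200 UMIs were past that fold, and no member was past 1.5-fold higher, where 4.2% of genes were. Pkm (0.935) and Ldha (0.913) changed direction when each barcode was given equal weight, to 1.03 and 1.04, and Hk2 (1.18) when every barcode was thinned to 1000 UMIs, to 0.978. The median log2 ratio was -0.17 over the 10 genes and -0.06 over all those genes.

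The split by state gave another picture. Within resting, activated and effector Treg-like barcodes the summed genes stood higher in KO than in WT, and they were lower in KO among cycling barcodes and in cluster 7. T-lineage clusters were also found at a finer resolution of 1.0 (called fine clusters here), and the KO level of each was weighted by its share of WT UMIs. Fine cluster 16, with 2 WT and 220 KO barcodes, and fine cluster 22, with 43 and 7, were left out. The summed genes then stood at 5041 CPM in WT and 5419 CPM in KO, a ratio of 1.08 in place of 0.854. Of the WT UMIs used as weights, 57.7% lay in 4 fine clusters that together held 162 KO barcodes, and over the other 10 fine clusters, with 11478 KO barcodes, the weighted ratio was 1.11. With the same weights Aldoa stood at 0.858, Gapdh at 1.05, Ldha at 1.15 and Pkm at 1.12 of WT. The direction of the pooled ratio thus differed between the libraries' own cluster makeup and a makeup held at that of WT.

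**Figure D1:**
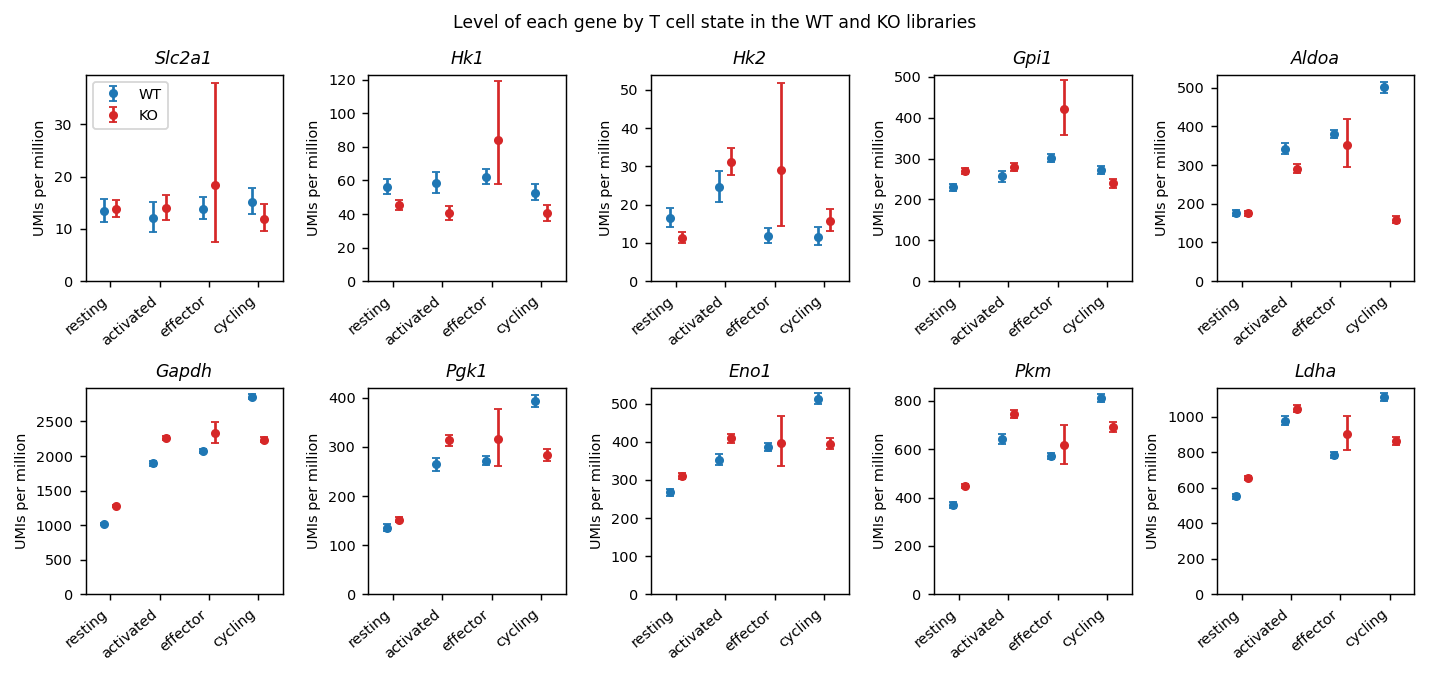
Level of each of the 10 genes in CPM (vertical axes, each from 0) in resting, activated, effector and cycling barcodes of the WT (blue) and KO (red) libraries; points are sums over barcodes and bars exact 95% Poisson intervals. Aldoa stood at 501 CPM in WT and 158 CPM in KO cycling barcodes, whereas in resting barcodes it stood at 176 CPM in WT and 175 CPM in KO.

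Among resting barcodes the summed genes stood at 2832 CPM (2801 to 2863) in WT and 3354 CPM (3329 to 3379) in KO, a ratio of 1.18 (1.17 to 1.20). Of the 10 genes, 6 had intervals above 1, namely Gpi1, Gapdh, Pgk1, Eno1, Pkm and Ldha, 2 had intervals below 1, namely Hk1 and Hk2, and 2 held 1, namely Slc2a1 and Aldoa. Gapdh stood at 1016 CPM in WT and 1275 CPM in KO, a ratio of 1.25 (1.23 to 1.28), the highest of the 10. Ldha, the lactate-forming enzyme, had 551 and 655 CPM and Pkm, the pyruvate kinase, 370 and 447 CPM. The hexokinases went the other way, Hk2 with 16.5 CPM in WT and 11.3 CPM in KO (ratio 0.687, 0.563 to 0.839) and Hk1 with 56.3 and 45.5 CPM (0.808, 0.729 to 0.896). The share of all genes with intervals above or below 1 was not computed. No member was past 1.5-fold in either direction, beside 8.08% of 8085 genes lower and 1.81% higher in KO. The median log2 ratio of the members was 0.19, against -0.08 for all those genes.

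In the resting comparison the median gene, of those with at least 50 UMIs, had a KO to WT log2 ratio of -0.12. Scaling by it raised the summed ratio to 1.28. The resting barcodes of the libraries lay in different fine clusters. Fine cluster 1 held 2111 of the 2695 WT barcodes but 1394 of the 4935 KO barcodes, fine cluster 3 held 357 and 2155, and fine cluster 6, led by interferon-induced genes, 149 and 1294. Within these 3 fine clusters the summed ratio was 1.07 (1.05 to 1.10), 1.12 (1.08 to 1.15) and 1.09 (1.05 to 1.15). In fine cluster 1 only Gpi1 (1.19), Gapdh (1.13) and Pkm (1.12) of the 10 genes had intervals above 1, while Ldha stood at 1.04 (0.990 to 1.09), Pgk1 at 1.01 (0.911 to 1.11) and Eno1 at 0.965 (0.897 to 1.04). Among resting barcodes the 12 resting markers summed to 2609 CPM in WT and 2812 CPM in KO, and the 12 activated markers to 926 and 1112 CPM. The 14 effector markers summed to 558 CPM in WT and 167 CPM in KO, all 14 lower in KO, and the 12 erythroid markers to 525 and 1034 CPM, with 5 of 12 higher in KO. Their part in the resting values was not tested.

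Activated Treg-like barcodes, marked by genes such as Tnfrsf4 and Nefh, had 4822 CPM (4766 to 4878) of the summed genes in WT and 5435 CPM (5390 to 5481) in KO, a ratio of 1.13 (1.11 to 1.14). Gapdh had 1893 CPM in WT and 2264 CPM in KO, Pgk1, the first ATP-forming enzyme, 265 and 314 CPM, and Hk2 24.6 and 31.2 CPM, all 3 with intervals above 1, though Hk2 stood at 0.941 after thinning. Hk1 and Aldoa were lower in KO, Hk1 with 58.4 CPM against 40.4 CPM (0.691, with an interval below 1) and Aldoa with 343 CPM against 291 CPM (0.849, 0.802 to 0.899). In all, 7 members had intervals above 1 and 2 below. The share of all genes with such intervals was not computed. No member was past 1.5-fold, beside 6.77% of 6322 genes lower and 2.8% higher in KO. Fine cluster 5, also named activated, held 649 WT and 991 KO barcodes, with a summed ratio of 1.10 (1.08 to 1.12). So was fine cluster 16, led by genes such as Cdkn1a, Trib3 and Nupr1, with 2 WT and 220 KO barcodes. Its KO barcodes held 6334 CPM of the summed genes, against 5140 CPM in those of fine cluster 5. Its part in the activated ratio was not tested. Effector markers summed to 1042 CPM in WT and 192 CPM in KO in this state, all 14 lower in KO, and erythroid markers to 390 and 762 CPM, with 6 of 12 higher. Their part was not tested.

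Effector Treg-like barcodes came from a cluster led by genes such as Klrg1, Cxcr3 and S100a4. They had 4854 CPM (4815 to 4894) of the summed genes in WT and 5480 CPM (5247 to 5720) in KO. The ratio was 1.13 (1.08 to 1.18) from 57802 WT UMIs but only 2079 KO UMIs, and it was 0.999 when every barcode was thinned to 1000 UMIs. Gpi1, which turns glucose 6-phosphate into fructose 6-phosphate, had 301 CPM in WT and 422 CPM in KO (1.40, 1.19 to 1.64). Aldoa had 381 CPM in WT and 353 CPM in KO (0.928, 0.776 to 1.10), so that its interval held 1. Gapdh had 2070 CPM in WT and 2338 CPM in KO, and its ratio of 1.13 became 0.943 after thinning. The Hk2 ratio of 2.47 (1.20 to 4.55) came from 11 KO UMIs. Of 8 members with at least 200 UMIs none was past 1.5-fold, beside 11.4% of 5795 genes lower and 6.97% higher in KO. The 14 effector markers summed to 4383 CPM in WT and 3363 CPM in KO in this state, with 5 of 14 higher in KO. Klrg1 alone had 83.6 CPM in WT and 7.91 CPM in KO. The part of these differences was not tested.

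**Figure D2:**
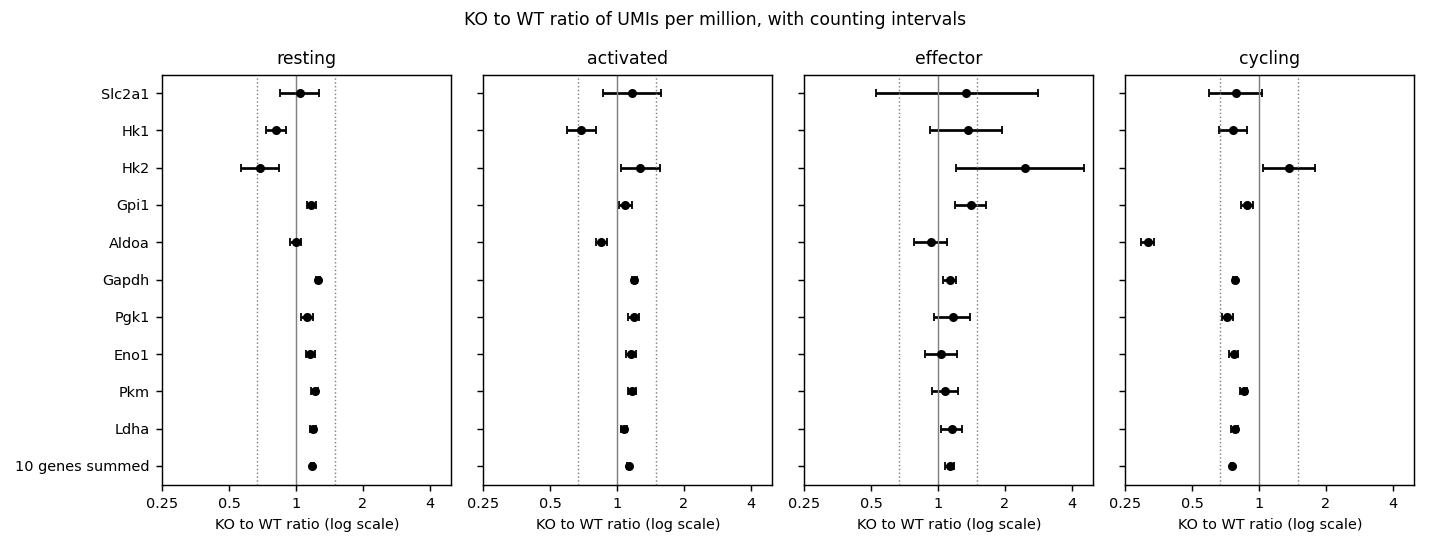
KO to WT ratio of CPM (horizontal axes, log scale) of each gene and of the 10 genes summed, in 4 states; bars are exact 95% counting intervals, the solid line is 1 and dotted lines mark 1.5-fold. Most points lie to the right of 1 in the first 3 panels and to the left of it in the cycling panel, where Aldoa stands at 0.315.

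Cycling barcodes gave the lower KO values. The summed genes stood at 6538 CPM (6486 to 6590) in WT and 4932 CPM (4882 to 4982) in KO, a ratio of 0.754 (0.745 to 0.764). Aldoa had 501 CPM in WT and 158 CPM in KO, a ratio of 0.315 (0.296 to 0.336), and was the only member past 1.5-fold lower, beside 5.74% of 6537 genes, while no member was past 1.5-fold higher, beside 5.58% of genes. Pgk1 had 393 and 283 CPM (0.720), Eno1, the enolase, 513 and 394 CPM (0.768), Ldha 1110 and 861 CPM (0.776), Gapdh 2856 and 2235 CPM (0.783) and Pkm 812 and 692 CPM (0.853). Hk2 was the exception, with 11.6 CPM in WT and 15.8 CPM in KO (1.36, 1.04 to 1.78). The median log2 ratio was -0.36 over the members and 0.03 over all those genes.

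Cluster 7, with mitotic and effector markers at once, gave values like these. The summed genes stood at 6986 CPM (6927 to 7045) in WT and 5003 CPM (4921 to 5086) in KO (0.716, 0.703 to 0.730), Aldoa at 549 and 221 CPM (0.403, 0.370 to 0.439) and Pgk1 at 432 and 273 CPM (0.633, 0.585 to 0.685). Effector markers summed to 3761 CPM in WT and 955 CPM in KO there. The 13 cycling markers of G2 and M phase summed to 2819 CPM in WT and 5474 CPM in KO, all 13 higher in KO.

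The cycling barcodes of the libraries differed in other measured ways. The 12 cycling markers of S phase summed to 12886 CPM in WT and 8115 CPM in KO, with 0 of 12 higher in KO. The 13 of G2 and M phase summed to 4399 and 4790 CPM, with 6 of 13 higher in KO. Effector markers summed to 2347 CPM in WT and 284 CPM in KO among the cycling barcodes, all 14 lower in KO. Erythroid markers summed to 298 and 1505 CPM, with 8 of 12 higher in KO. The median depth was 15024.5 UMIs in WT and 9152 in KO. The part of these differences in the cycling values was not tested. At resolution 1.0 the cycling cluster split in 2 fine clusters. Fine cluster 9, without raised effector markers, held 162 of the 558 WT barcodes and 651 of the 695 KO barcodes, and fine cluster 13, with 12 of 14 effector markers raised, held 395 WT and 40 KO barcodes. Cluster 7 split likewise into fine cluster 10, with 12 effector markers raised, which held 536 of 593 WT but 27 of 323 KO barcodes, and fine cluster 14, with none raised, which held 40 WT and 282 KO barcodes. A small fine cluster led by natural killer cell genes such as Gzma, Klrd1 and Ncr1 held a further 13 WT and 14 KO barcodes of cluster 7.

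Within the clusters without raised effector markers the summed genes stood higher in KO. In fine cluster 9 they had 3931 CPM in WT and 4792 CPM in KO (1.22, 1.19 to 1.25), and in fine cluster 14 they had 3630 and 4582 CPM (1.26, 1.19 to 1.34). In fine cluster 9, Ldha had 647 CPM in WT and 815 CPM in KO (1.26, 1.18 to 1.35), Gapdh 1775 and 2209 CPM (1.24, 1.20 to 1.30) and Aldoa 148 and 142 CPM (0.957, 0.831 to 1.10). The low Aldoa ratio of the cycling class was thus not seen in either of these clusters, with 1.00 (0.752 to 1.36) in fine cluster 14. Markers differed within these clusters too. Effector markers summed to 453 CPM in WT and 160 CPM in KO in fine cluster 9, and to 500 and 245 CPM in fine cluster 14. The 25 cycling markers summed to 17896.5 and 13235 CPM in fine cluster 9, and to 8596 and 7170 CPM in fine cluster 14. The part of these differences was not tested.

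Within the cycling clusters with raised effector markers the values were high in both libraries. Fine cluster 10 had 7178 CPM of the summed genes in WT and 8204 CPM in KO (1.14, 1.10 to 1.19), and fine cluster 13 had 7104 and 6512 CPM (0.917, 0.889 to 0.945). Aldoa had 573 CPM in WT and 587 CPM in KO in fine cluster 10, and 578 and 345 CPM in fine cluster 13 (0.597, 0.522 to 0.681). Effector markers still differed in fine cluster 13, with 2766 CPM in WT and 1508 CPM in KO. The 25 cycling markers summed differed too, with 17126 CPM in WT and 9079 CPM in KO. The KO values rest on 41 barcodes there and on 27 in fine cluster 10. The part of these marker differences in the Aldoa value was not tested.

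**Figure D3:**
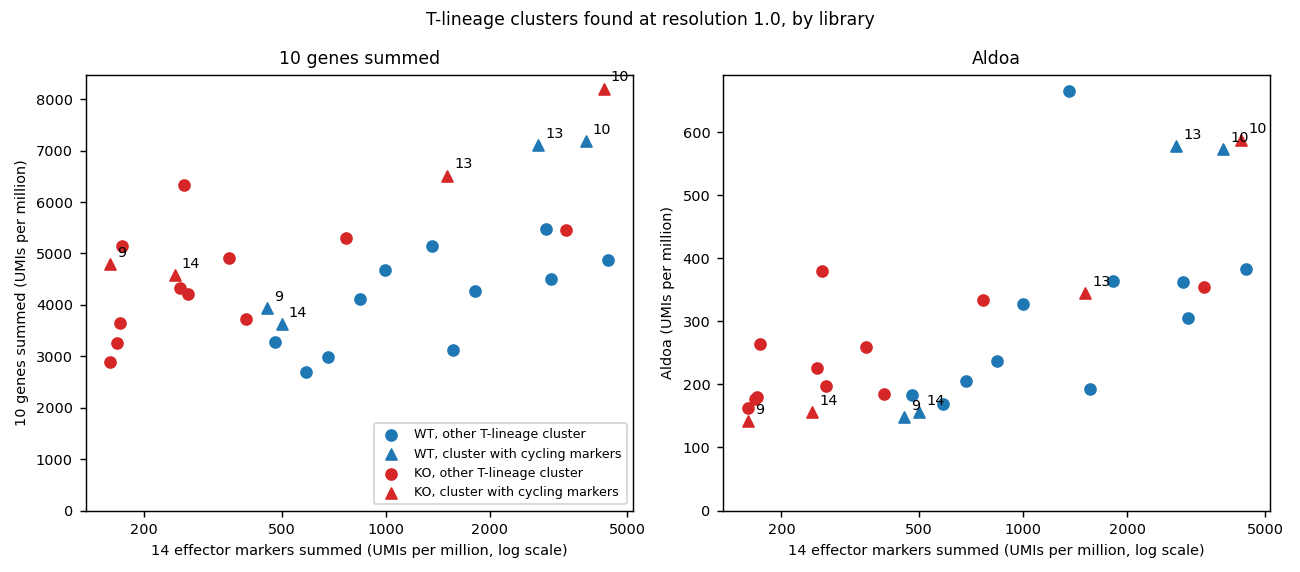
The 10 genes summed (left) and Aldoa (right), in CPM, against the 14 effector markers summed (log scale), for each T-lineage cluster found at resolution 1.0 with at least 20 barcodes of that library; triangles are clusters with at least 13 of 25 cycling markers raised, numbered. WT cycling barcodes lie mostly in clusters 10 and 13, at 7178 and 7104 CPM, and KO cycling barcodes in clusters 9 and 14, at 4792 and 4582 CPM.

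Barcode depth moved with the summed level in both libraries. Resting barcodes with under 2000 UMIs had 2594 CPM in WT and 3005 CPM in KO, and those with 10000 to 20000 UMIs had 3408 and 4010 CPM. Activated barcodes went from 3221 CPM in WT and 4342 CPM in KO at 2000 to 5000 UMIs to 6108 and 6961 CPM at 20000 UMIs or more. KO stood above WT in every depth range shown for these 2 states, with ratios from 1.15 to 1.21 in resting and from 1.06 to 1.35 in activated barcodes. Among cycling barcodes the ratio was 1.33 at 2000 to 5000 UMIs, 1.05 at 5000 to 10000, 0.776 at 10000 to 20000 and 0.868 from 20000 UMIs on, so that the KO value was lower only among the deeper barcodes. Over all T-lineage barcodes the ratio was 1.21 at 2000 to 5000 UMIs and 0.838 at 10000 to 20000.

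**Figure D4:**
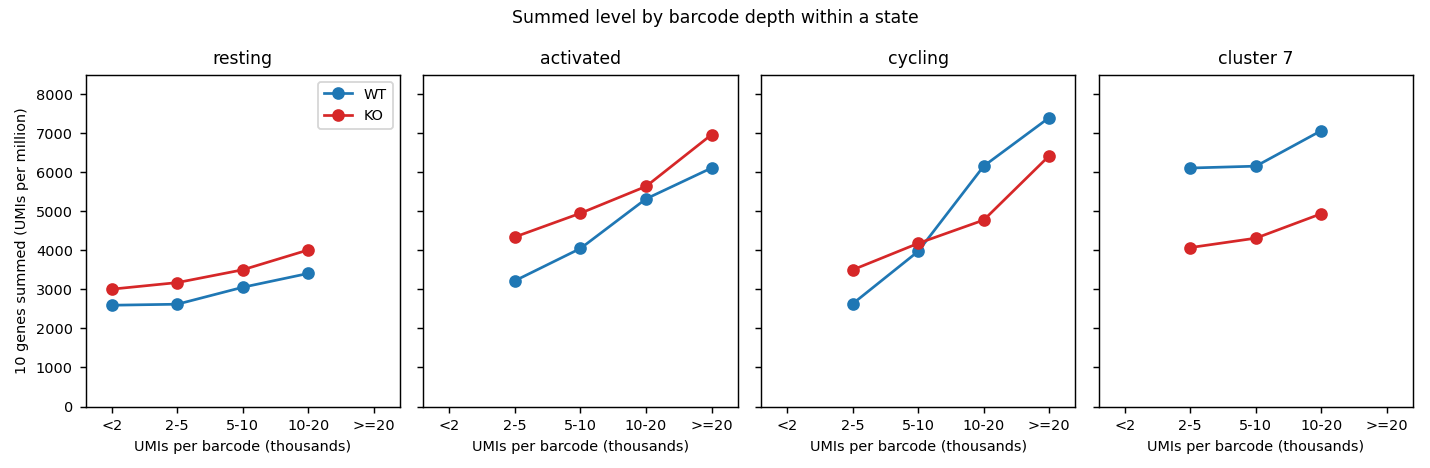
The 10 genes summed, in CPM, by depth of the barcode (axis in units of 1000 UMIs), within resting, activated and cycling barcodes and cluster 7 of the WT (blue) and KO (red) libraries; only ranges with at least 20 barcodes in each library are drawn. The level is higher in deeper barcodes of every panel, and the lines cross only among cycling barcodes.

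Thinning every barcode to 1000 UMIs gave the spread between barcodes. A resting barcode held a median of 2 UMIs of the 10 genes in WT and 3 in KO, with 5 and 6 at the 90th percentile. Activated and effector barcodes held medians of 4 in WT and 5 in KO. Cycling barcodes and those of cluster 7 held medians of 6 in WT and 4 in KO. Of T-lineage barcodes, 1063 in WT and 1031 in KO were too shallow to be thinned.

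Compared with resting barcodes of the same library, the other states held more of these transcripts. Activated to resting ratios of the summed genes were 1.70 (1.68 to 1.73) in WT and 1.62 (1.60 to 1.64) in KO, effector to resting ratios 1.71 (1.69 to 1.74) and 1.63 (1.56 to 1.71), and cycling to resting ratios 2.31 (2.28 to 2.34) and 1.47 (1.45 to 1.49). Activated barcodes were also deeper than resting ones, with medians of 8168 and 3878 UMIs in WT and 7008.5 and 3607 UMIs in KO, and within depth ranges the activated to resting ratio lay between 1.23 and 1.56 in WT and between 1.37 and 1.41 in KO.

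The genes did not share this pattern evenly. Pgk1 had an activated to resting ratio of 1.95 in WT and 2.07 in KO, Gapdh of 1.86 and 1.78, Aldoa of 1.95 and 1.66 and Ldha of 1.77 and 1.59. Slc2a1 and Hk1 stayed near 1, with 0.90 and 1.04 in WT and 1.01 and 0.89 in KO. Hk2, the inducible hexokinase, was the member with the largest such ratio in KO, at 2.75 (2.32 to 3.28), against 1.49 (1.19 to 1.87) in WT, and whether the libraries differ in it could not be tested. The count of members past 1.5-fold higher was 5 in WT, beside 17.6% of genes, and 6 in KO, beside 15.9%.

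Slc2a1, a glucose transporter at the start of the pathway, varied little between states. In WT it stood at 13.4 CPM in resting, 12.0 in activated, 13.9 in effector and 15.2 in cycling barcodes, and in KO at 13.9 CPM in resting, 18.5 in effector and 11.9 in cycling barcodes, the effector value from 7 UMIs, with 141 UMIs and a KO to WT ratio of 1.16 in activated barcodes. Each of its KO to WT intervals in these states held 1. Hk1, the constitutive hexokinase, stood at 56.3, 58.4, 62.1 and 52.8 CPM in WT and at 45.5, 40.4, 84.3 and 40.4 CPM in KO, and its interval lay below 1 in all of these states but the effector one, where 32 KO UMIs were counted.

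Effector barcodes had more Aldoa, Gapdh and Pgk1 than resting ones, with ratios of 2.17, 2.04 and 2.00 in WT and 2.02, 1.83 and 2.09 in KO. Hk2 was lower in effector than in resting barcodes in WT (0.71, 0.57 to 0.90). The count of members past 1.5-fold higher was 4 in WT, beside 6.87% of genes, and 6 in KO, beside 13.7%. Cycling barcodes had 6 members past 1.5-fold higher in WT, beside 20.3% of genes, and 3 in KO, beside 17.5%. Aldoa had a cycling to resting ratio of 2.85 (2.71 to 3.01) in WT and of 0.90 (0.84 to 0.97) in KO, while Pgk1 had 2.90 and 1.87 and Gapdh 2.81 and 1.75. In fine cluster 9 alone, Aldoa stood at 148 CPM in WT and 142 CPM in KO, below the resting levels of 176 and 175 CPM in both libraries.

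**Figure D5:**
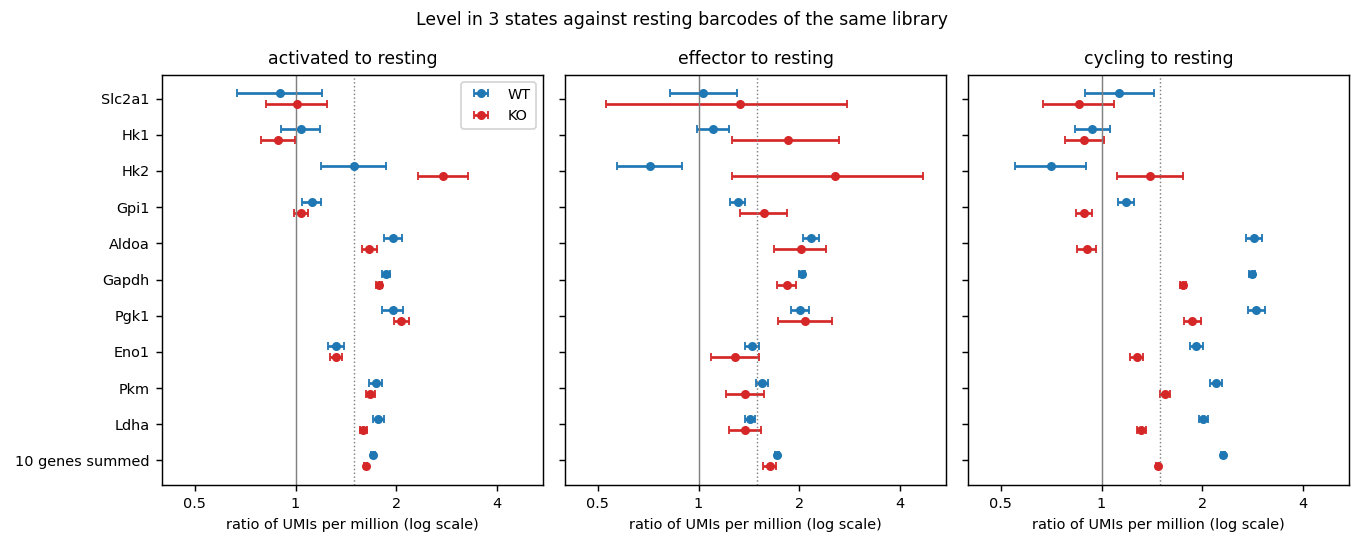
Ratio of CPM in activated, effector and cycling barcodes to resting barcodes of the same library (horizontal axes, log scale) for each gene and for the 10 genes summed, in WT (blue) and KO (red); bars are exact 95% counting intervals and the dotted line marks 1.5-fold. WT and KO points lie close together for most genes in the first panel and apart in the cycling panel, where Aldoa stands at 2.85 in WT and 0.90 in KO.

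Low-depth T-lineage clusters in which haemoglobin, neutrophil granule or macrophage transcripts led held 1120 WT and 4685 KO barcodes. The summed genes stood at 4370 CPM in WT and 4390 CPM in KO in them (1.00, 0.974 to 1.04), at 3357 and 14560 CPM of erythroid markers. Aldoa had 345 and 228 CPM there (0.660, 0.589 to 0.740). Erythroid clusters outside the T lineage held 2433 CPM of the summed genes in WT and 2305 CPM in KO, below the value of all T-lineage barcodes, and Pkm was the member that differed most in them, with 89.2 CPM in WT and 191 CPM in KO.

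Across 14 pairs of a T-lineage cluster and a library with at least 100 barcodes, each member was set beside the sum of the other members on the log2 CPM scale, as a description over points that share libraries and differ in depth. Pearson's r was 0.97 for Pkm, 0.96 for Pgk1 and Gapdh, 0.94 for Ldha and 0.88 for Eno1. It was 0.73 for Aldoa, 0.47 for Slc2a1, 0.39 for Gpi1, 0.21 for Hk2 and -0.13 for Hk1. Over these points the enzymes of the steps from Gapdh to Ldha thus varied together most closely, and the hexokinases least. Few UMIs stood behind some points of Hk2 and Slc2a1, such as 7 and 11 in a WT cluster led by haemoglobin transcripts. Gapdh gave 98991 of the 237157 WT UMIs of the 10 genes over all T-lineage barcodes, and so weighs heavily in the sums. The part of either in these values was not tested.

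Of 6970 genes outside the lists used here with at least 1000 UMIs, the 10 most like the summed members over these pairs were Ndufb8 (r = 0.97) and Atp5f1 (0.97), which encode parts of respiratory complex I and ATP synthase, then Pmm1, Sf3b6, Atp5a1, Txn1, Ehd4, Psmd13, Ccdc124 and Mrps36, the last at 0.95. Among those that ran most against them were Rasgrp1 (r = -0.98), Zfp652, Malat1 and Ift80. Rasgrp1 encodes a signalling protein downstream of the T cell receptor. With 14 points and 6970 genes, values of this size are a ranking only.

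Other genes of the pathway, 27 in number, were counted beside the members. Over all T-lineage barcodes, 4 of the 18 with at least 200 UMIs were past 1.5-fold lower in KO and 1 past 1.5-fold higher, beside 9.19% and 4.2% of all genes, with a median log2 ratio of -0.08. Slc2a3, another glucose transporter, stood at 28.8 CPM in WT and 12.1 CPM in KO (0.421, 0.381 to 0.464), and was lower in KO in each state, at 0.42 in resting, 0.39 in activated, 0.36 in effector and 0.46 in cycling barcodes, the effector value from 5 KO UMIs. Tpi1, which interconverts the products of the aldolase step, stood at 288 and 149 CPM (0.518, 0.503 to 0.533), with 0.72, 0.75, 0.59 and 0.49 in the same order of states. Slc16a3, a lactate exporter, stood at 27.5 and 12.7 CPM (0.463), with 0.74, 0.68, 0.30 and 0.40, the effector value from 2 KO UMIs and with an interval that held 1. The fourth gene was Aldoc, a further aldolase, with 153 UMIs in WT and 83 in KO (0.527), which is named after its values were seen. Eno3 (1.80), Ldhb (1.37) and Pfkm (1.33) had the highest ratios among the genes of the list with at least 200 UMIs.

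Within the resting state 1 of 13 measured genes of that list was past 1.5-fold lower, beside 8.08% of all genes, and in the activated state none of 12, beside 6.77%. In the cycling state 5 of 12 were past 1.5-fold lower and 2 higher, beside 5.74% and 5.58% of all genes. Against resting barcodes, 5 of 13 were past 1.5-fold higher in activated barcodes of WT and 5 of 15 in KO, beside 17.6% and 15.9% of all genes. In the wider list the median log2 ratio was -0.08 in the resting and -0.32 in the cycling state, against 0.19 and -0.36 for the 10 members.

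Genes around pyruvate entry into mitochondria and of the pentose phosphate pathway were counted against the same shares of all genes, 9.19% lower and 4.2% higher in KO. None of 12 measured genes was past 1.5-fold lower over all T-lineage barcodes and 1 was past 1.5-fold higher, Pdk2, at 2.42 CPM in WT and 4.66 CPM in KO (1.92, 1.53 to 2.43). Pdp2 (1.20) and Pdhb (1.18) followed, and Pdk3 (0.690), Mpc1 (0.920) and Mpc2 (0.928) were lowest. Pdk2 and Pdk3 encode kinases that restrain pyruvate dehydrogenase, and Mpc1 and Mpc2 the mitochondrial pyruvate carrier. In the pentose phosphate pathway, which branches off at glucose 6-phosphate, none of 8 genes was past 1.5-fold in either direction, with Tkt (1.08), Pgls (1.01) and Taldo1 (0.972) highest and H6pd (0.686), Rpe (0.815) and G6pdx (0.841) lowest.

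Among 17 regulators, Hif1a was the only gene past 1.5-fold lower, beside 9.19% of all genes, at 120 CPM in WT and 73.2 CPM in KO (0.609, 0.584 to 0.636), and it stood at 0.89 in resting, 0.72 in activated, 0.77 in effector and 0.54 in cycling barcodes. Myc stood at 18.5 and 26.6 CPM (1.44, 1.32 to 1.57), with 1.17 in resting, 0.73 in activated and 2.11 in cycling barcodes. Foxo1 (1.33) and Akt2 (1.16) were next highest, and Mtor (0.724) and Arnt (0.806) next lowest. Of 11 measured genes known to respond to hypoxia, 3 were past 1.5-fold lower over all T-lineage barcodes, beside 9.19% of all genes, Egln3 (0.409), Ankrd37 (0.414) and Bnip3 (0.429), and none higher, with Ddit4 (1.14), Kdm3a (0.990) and Ndrg1 (0.967) at the other end. In resting barcodes these 3 genes had 68, 202 and 98 UMIs over both libraries, too few in Egln3 and Bnip3 to count as measured. They stood at 0.84 (0.503 to 1.42), 0.59 (0.440 to 0.779) and 0.60 (0.395 to 0.909) there. Ndrg1, also below that minimum with 164 UMIs, stood at 2.37 (1.59 to 3.62). Of the 8 genes of the list measured in resting barcodes, 1 was past 1.5-fold lower in KO and none higher. The median log2 ratio of these 8 genes was -0.11, against -0.08 for all genes.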

How the data were processed

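The authors processed the reads of 1 WT and 1 KO library with Cell Ranger 5.0.1 on mm10 and deposited raw UMI counts per gene and barcode. No other normalisation had been applied. A barcode had to show 300 genes or more, with no more than 5% of its UMIs mitochondrial. Doublets were scored per library with Scrublet in scanpy 1.11.5, and the top 5% of WT and 8% of KO scores were removed. Clusters came from 2000 variable genes, 30 principal components, 20 neighbours and Leiden resolution 0.5, without the 10 glycolysis genes, the listed genes, mitochondrial, haemoglobin and rRNA-like genes and Zfp335 (116 genes in all). States were named "X-like" from marker lists, and the naming rule was set after the clusters were seen.

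Counts were summed per library and state and given as CPM with exact Poisson intervals, and ratios with exact conditional binomial intervals at 95%. Counts of genes past 1.5-fold used genes with at least 200 UMIs in the compared groups, and no p-value was computed since each genotype has 1 library. A gene stands as "measured" above that minimum. All 10 members are named, and of each list the 3 genes with the lowest and the 3 with the highest KO to WT ratio over the T lineage. The members and lists were chosen with earlier results of these data known. Alternatives were other filters on barcodes, clustering, scaling, thinning and depth ranges. The summing step was tested on simulated Poisson counts drawn from the pooled profile of a state. That test covers counting error only, not differences between mice, barcodes or cluster makeup. Promoters came from RefSeq (GRCm38.p6) and positions from GENCODE M21, both of the mm10 build. One gene of the likeness ranking is not reported here.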

Additional observations from a re-analysis of the deposited data

Results flagged for a closer look

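Several members stood on opposite sides of WT in different states of the KO library, with intervals that did not hold 1. These differences between states were not tested, since each genotype has 1 library, and the intervals cover counting error only. The 10 genes summed had KO to WT ratios of 1.18 in resting, 1.13 in activated, 1.13 in effector and 0.754 in cycling barcodes. Gapdh had 1.25, 1.20 and 1.13 in resting, activated and effector barcodes and 0.783 in cycling ones, and Gpi1 had 1.17, 1.09 and 1.40 against 0.880. Ldha had 1.19, 1.07 and 1.15 against 0.776. In resting and activated barcodes Pgk1 had 1.12 and 1.19 against 0.720 in cycling ones, Eno1 1.16 and 1.16 against 0.768, and Pkm 1.21 and 1.17 against 0.853. Hk2 ran in the other direction, with 0.687 in resting barcodes and 1.27, 1.36 and 2.47 in activated, cycling and effector ones. When clustered more finely, the class without raised effector markers (fine clusters 9 and 14) had 6 of these genes higher in KO. Fine cluster 13 held 395 of the 558 WT cycling barcodes, and its KO values rest on 41 barcodes. Gapdh stood at 0.818 (0.779 to 0.859) there and Ldha at 1.13 (1.06 to 1.21). The intervals of Gpi1 (0.897), Eno1 (0.957), Pgk1 (1.02) and Pkm (1.09) held 1. In fine cluster 10, with 27 KO barcodes, all 8 measured members were higher in KO, 6 of them with intervals above 1. Cycling markers summed to 4590 CPM in WT and 6544 CPM in KO there, and their part was not tested. The share of all genes higher in KO was not computed for these fine clusters.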

How the results depend on the processing

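No paired analysis was possible because each genotype has 1 library, and for the same reason none was left out. All depth ranges and the alternatives without Gapdh, without marker-led clusters and with clusters weighted as in WT were chosen after seeing the data. The cause of each move was not tested.

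Over all T-lineage barcodes the summed ratio of 0.854 became 0.870 with up to 10% mitochondrial UMIs, 0.962 as a mean over barcodes, 0.879 without mitochondrial, ribosomal, haemoglobin and rRNA-like genes in the denominator, 0.896 scaled by the median gene, 0.968 thinned, 0.849 without clusters led by globin, granule or macrophage genes, and 1.08 with KO clusters weighted as in WT (1.11 over clusters with at least 100 KO barcodes). In the ranges of 2000 to 5000, 5000 to 10000 and 10000 to 20000 UMIs it was 1.21, 0.936 and 0.838. Among single genes there, the mean over barcodes and thinning turned Pkm to 1.03 and 1.04 and Ldha to 1.04 and 1.03, and thinning turned Hk2 to 0.978.

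In resting barcodes 1.18 became 1.16 with the 10% limit, 1.14 at resolution 1.0, 1.28 by the median gene, 1.15 without Gapdh, and 1.21 and 1.15 in the 2 lower ranges, and thinning put 1 member past 1.5-fold lower in place of 0. At resolution 1.0 the resting class changed members, since fine cluster 3 was left unnamed. It held 357 of the 2695 WT and 2155 of the 4935 KO resting barcodes. In activated barcodes 1.13 became 1.08, 1.16, 1.20 and 1.08 under the same 4 choices, 1.14 as a mean over barcodes, 1.15 with the reduced denominator, 1.21 thinned, and 1.35, 1.22 and 1.06 in the 3 ranges, and thinned Hk2 was 0.941. In effector barcodes 1.13 became 1.07 with the 10% limit, 1.07 as a mean and 0.999 thinned, with Gapdh at 0.943, Hk2 at 0, and 1 member past 1.5-fold higher in place of 0.

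In cycling barcodes 0.754 became 1.22 at resolution 1.0. The class then changed members, to fine clusters 9 and 14, without fine cluster 13, which held 395 of the 558 WT barcodes and had a ratio of 0.917, and with fine cluster 14, which came from cluster 7. In that class Gpi1 stood at 1.27, Gapdh at 1.24, Pgk1 at 1.19, Eno1 at 1.18, Pkm at 1.21 and Ldha at 1.29, and no member was past 1.5-fold lower (0 in place of 1). It was 0.740 by the median gene, 0.732 without Gapdh, and 1.33, 1.05 and 0.776 in the 3 ranges. Thinning put 3 members past 1.5-fold lower and 1 higher.

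The activated to resting ratio of 1.70 in WT became 1.74 with the 10% limit, 1.66 with at least 500 genes, 1.59 as a mean, 1.80 by the median gene, 1.52 thinned, 1.61 without Gapdh, and 1.23, 1.33 and 1.56 in the 3 ranges. That of 1.62 in KO became 1.60 with doublets kept, 1.75 at resolution 1.0, 1.54 as a mean, 1.64 with the reduced denominator, 1.71 by the median gene, 1.56 thinned, 1.53 without Gapdh, and 1.37, 1.41 and 1.41 in the ranges. Of 400 single-gene values under the alternatives, 316 moved by less than their counting interval, 70 moved by more in the same direction and 14 changed direction. Depth limited Slc2a1, Hk1 and Hk2 most, and all members in the 61 KO effector barcodes.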
